A study of Rattus norvegicus with 10 samples.

Results

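The insulin-like growth factor (IGF) genes described here are the 10 genes *Igf1*, *Igf1r*, *Igf2r* and *Igfbp1* to *Igfbp7*, chosen by symbol from the 32545 genes of a kidney expression table. Each symbol stood on 1 row, and all 10 genes passed the filter on low values. The RNA was that of the renal cortex, with 1 library from each of 5 males and 5 females of the PCK strain. Both sexes carry the *Pkhd1* allele of this strain, which is used as a model of recessive polycystic kidney disease, and the series holds no rat without it. The kidneys were flushed with buffer before they were taken, and the rats came as littermates from 2 litters. The labels do not give the litter of these rats, so no test could use it. The series text gives their age as 12 to 14 weeks and the study's methods give 10 to 12 weeks, and neither names a treatment. The question was which IGF genes differ between the sexes in cystic kidney.

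IGF1 and IGF2 are secreted peptides that signal through the IGF1 receptor, a tyrosine kinase related to the insulin receptor. The IGF2 receptor, which is also the cation-independent mannose 6-phosphate receptor, takes up IGF2 and carries lysosomal enzymes. Binding proteins hold IGFs in blood and tissue, and proteases such as PAPP-A release them. Liver makes most circulating IGF1 under growth hormone, while in kidney IGF1 is known to raise filtration and tubular growth.

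Promoter sequences are shown for the 2 members of lowest p between the sexes (*Igf1* and *Igfbp4*), for the 2 other pathway genes that passed the thresholds (*Igfbpl1* and *Stc2*), and for *Igfbp1*, whose insulin response element is well known. They come from RefSeq on build GRCr8, where all 10 genes had an entry, and run from 250 bases before the annotated start to 50 bases after it. This build is not that of the expression table. Positions are chr7:24172282-24172581 on the plus strand for *Igf1*, chr10:84491221-84491520 on the plus strand for *Igfbp4*, chr14:86261027-86261326 on the plus strand for *Igfbp1*, chr5:64887412-64887711 on the minus strand for *Igfbpl1* and chr10:16755258-16755557 on the plus strand for *Stc2*. The letters are lower case, with capitals for any match on either strand to 6 motifs. TATAAA is the TATA box and GGGCGG the GC box. TTCNNNGAA is bound by STAT factors. AGAACA is bound by androgen and glucocorticoid receptors, while AGGTCA is bound by other nuclear receptors. CAAAACA is the core of the insulin response element.

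Igf1: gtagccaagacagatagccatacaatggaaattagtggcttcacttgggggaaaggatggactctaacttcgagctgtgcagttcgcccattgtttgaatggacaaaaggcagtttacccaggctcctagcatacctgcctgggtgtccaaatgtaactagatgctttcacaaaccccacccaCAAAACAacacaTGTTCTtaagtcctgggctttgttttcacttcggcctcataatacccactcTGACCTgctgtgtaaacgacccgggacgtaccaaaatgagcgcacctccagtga 
Igfbp4: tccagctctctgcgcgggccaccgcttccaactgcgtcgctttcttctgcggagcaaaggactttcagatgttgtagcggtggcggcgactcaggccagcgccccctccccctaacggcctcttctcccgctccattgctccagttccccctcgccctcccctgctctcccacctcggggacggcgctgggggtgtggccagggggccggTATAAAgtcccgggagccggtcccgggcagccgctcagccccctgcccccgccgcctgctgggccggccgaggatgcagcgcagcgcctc 
Igfbp1: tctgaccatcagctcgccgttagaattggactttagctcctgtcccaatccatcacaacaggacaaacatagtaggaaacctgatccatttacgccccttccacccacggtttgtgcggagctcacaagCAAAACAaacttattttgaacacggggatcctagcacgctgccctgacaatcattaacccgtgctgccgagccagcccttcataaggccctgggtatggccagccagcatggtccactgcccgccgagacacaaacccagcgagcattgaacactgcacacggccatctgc 
Igfbpl1: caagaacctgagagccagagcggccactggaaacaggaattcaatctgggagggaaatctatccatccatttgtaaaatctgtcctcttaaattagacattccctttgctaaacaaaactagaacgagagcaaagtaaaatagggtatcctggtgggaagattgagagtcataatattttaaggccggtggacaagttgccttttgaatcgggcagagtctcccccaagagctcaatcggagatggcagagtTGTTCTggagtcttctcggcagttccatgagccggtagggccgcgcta 
Stc2: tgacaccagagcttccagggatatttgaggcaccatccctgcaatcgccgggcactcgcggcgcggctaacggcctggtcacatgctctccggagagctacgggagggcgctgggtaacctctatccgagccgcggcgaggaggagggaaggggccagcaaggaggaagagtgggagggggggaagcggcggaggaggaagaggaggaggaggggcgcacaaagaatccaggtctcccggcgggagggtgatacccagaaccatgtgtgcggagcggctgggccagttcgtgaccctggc

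The CAAAACA motif, which 6.28% of 33469 promoters hold, was found 67 bases before the start of *Igf1* and 121 bases before that of *Igfbp1*, and in none of the other 8 members. TATAAA, held by 14.2% of promoters, was found 40 bases before the start of *Igfbp4* and in no other member. AGAACA (20.7% of promoters) and AGGTCA (16.2%) were each found in *Igf1* and *Igfbp6*. GGGCGG (33.1%) was found in *Igf1r*, *Igf2r*, *Igfbp2* and *Igfbp7*, with 4 copies in *Igfbp7*. No member held TTCNNNGAA (8.87%). The *Stc2* window held 0 matches to the 6 motifs, and that of *Igfbpl1* held AGAACA alone. A match describes the letters only and is not evidence of binding.

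The unit is FPKM, fragments per kilobase of gene length on a scale set for each library, so levels of different genes can be set side by side. The library size that the values imply was 0.905 to 1.07 times the reads on genes, and the median-ratio factor was 1.01 in every library, so the deposited values already carried a scaling of that kind. Each FPKM came out as a whole number of reads (100% of values above 0 within 0.02 of a whole read), with 13912569 to 20285911 reads on genes per library. Mitochondrial genes took 15.1% to 17.0% of reads in males and 14.3% to 26.8% in females, the highest share being that of female 2. Female 2 also stood apart in the summed level of 5 urothelium genes, at 9.88 FPKM against 0.180 to 0.535 FPKM in the other 9 rats. The Y-linked gene *Eif2s3y* lay between 34.2 and 46.5 FPKM in every male and at or below 0.287 FPKM in every female, and *Kdm5d* and *Uty* were separated in the same way. The tissue expressed the proximal tubule markers strongly, with a summed level of 1454 to 2993 FPKM over 7 genes, while the hepatocyte gene *Alb* was at or below 0.0546 FPKM. The hepatocyte list as a whole ranged from 21.8 to 46.8 FPKM over 6 genes, of which *Apoc3* had the highest mean. Of that list *Ttr* passed the test on its adjusted p, listed at 0 in every male and at 0.0850 to 1.08 FPKM in females (limma adjusted p = 0.0142).

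Binding proteins were the abundant part of the family and the ligand was scarce. *Igfbp7*, whose product binds IGFs weakly and is laid down around vessels, had a mean of 1077 ± 218 FPKM (SD, n = 10) and ranked 40 among all genes by mean FPKM. *Igfbp5*, a matrix-bound binding protein, had 219 ± 35.5 FPKM and ranked 317. A middle group followed, made of *Igfbp3* (66.9 FPKM), *Igfbp1* (58.6 FPKM), *Igfbp4* (52.4 FPKM), *Igf2r* (43.3 FPKM) and *Igfbp2* (33.0 FPKM). At the low end were *Igf1r* (5.86 FPKM), *Igf1* (3.16 FPKM) and *Igfbp6* (2.97 FPKM), an IGF2-preferring binding protein.

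In this order, *Igfbp7* exceeded *Igfbp5* 4.88-fold and *Igfbp5* exceeded *Igfbp3* 3.38-fold, each in 10 of 10 rats. The step from *Igfbp2* to *Igf1r* was 5.57-fold and that from *Igf1r* to *Igf1* was 1.84-fold, again in 10 of 10 rats. For each of these 4 steps the exact sign-flip permutation test over rats, two-sided, gave p = 0.00195, the smallest that 10 rats allow. This p takes the annotated gene lengths as given (1102 bases for *Igfbp7* and 5866 bases for *Igfbp5*). Before division by length, male 1 had 18114 reads of *Igfbp7* and 21260 of *Igfbp5*. *Igf2r* exceeded *Igfbp2* 1.31-fold in 8 of 10 rats (exact sign-flip permutation test, p = 0.0215). The neighbours *Igfbp3* and *Igfbp1* (p = 0.377), *Igfbp1* and *Igfbp4* (p = 0.322), *Igfbp4* and *Igf2r* (p = 0.137), and *Igf1* and *Igfbp6* (p = 0.307) did not differ beyond their spread by the same exact test. Without female 1 the step from *Igfbp3* to *Igfbp1* had an exact sign-flip permutation p of 0.0156.

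**Figure D1:**
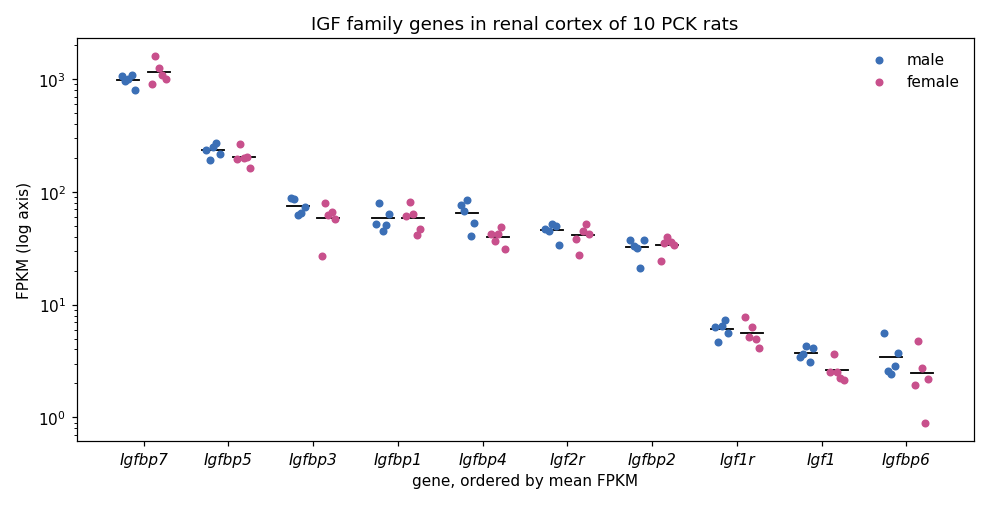
FPKM (log axis) of the 10 IGF family genes in each of 5 male and 5 female rats, ordered by mean FPKM, with 1 point per rat and a bar at the mean of each sex. *Igfbp7* stands near 1077 FPKM, *Igf1r*, *Igf1* and *Igfbp6* lie below 10 FPKM, and the points of the sexes overlap for every gene.

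None of the 10 members passed the study's thresholds between the sexes (a limma p of 0.05 or less after adjustment over all genes, with a log2 fold change of 1 or more either way), where 1.32% of the 17631 genes tested did. None passed on the adjusted p alone either, against 2.40% of all genes (1.26% higher and 1.14% lower in females). Over all genes these were 223 higher and 201 lower, against 170 and 235 with scaling to total reads, which moved the median log2 fold change of all genes from −0.01 to −0.08, and 190 and 318 by limma-voom. At an unadjusted p under 0.05 there were 2 members, *Igfbp4* and *Igf1*, both lower in females, against 15.7% of all genes, of which 8.07% were lower and 7.67% higher. By the exact permutation test the same 2 had p of 0.05 or less, as did 14.8% of all genes (7.38% lower). Limma-voom on the recovered reads called 0 members too, with 3 at an unadjusted p under 0.05. On the log2 scale 8 members had a lower mean in females and 2 a higher one. Among the 8 is *Igfbp1* at −0.0012, whose sign turned in some fits with 1 library left out. The median log2 fold change of the members was −0.18 against −0.01 over all genes tested, of which 51.2% were lower. The FPKM ranges of males and females overlapped for all 10 members, where 5.10% of all genes had separate ranges.

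**Figure D2:**
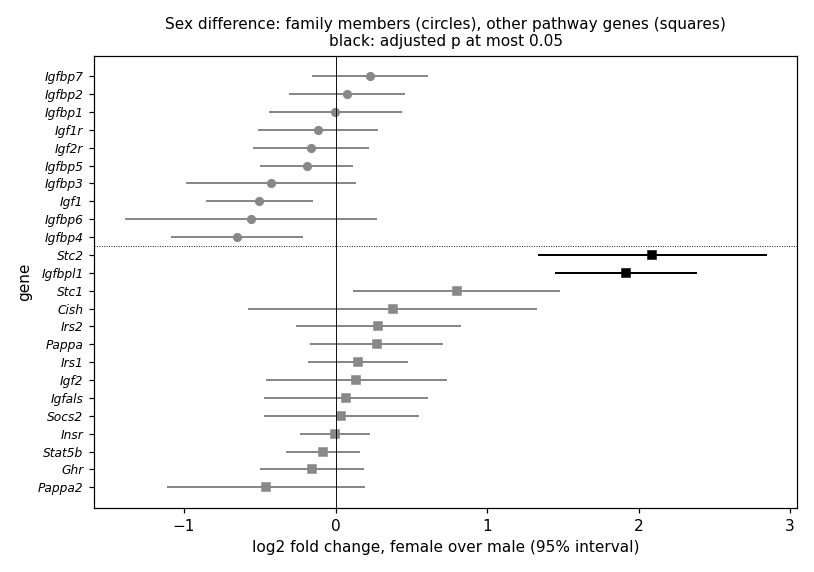
Log2 fold change of females over males (points) with its 95% interval from limma (lines) for the 10 members (circles) and 14 other pathway genes (squares), in black where the adjusted p over all genes was at most 0.05. Every member is grey, with *Igfbp4* at −0.65 and *Igf1* at −0.50 the only members whose interval leaves out 0, and *Stc2* and *Igfbpl1* are black at 2.09 and 1.92.

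*Igf1* (ENSRNOG00000004517, Rnor_6.0 chromosome 7, 28412198 to 28486609, plus strand), the ligand, was at 3.40, 3.63, 4.25, 3.08 and 4.16 FPKM in males 1 to 5. In females 1 to 5 it was at 2.51, 3.65, 2.52, 2.23 and 2.15 FPKM. Of the females, 4 lay below every male and female 2 lay among the males. The mean was 3.71 ± 0.500 FPKM in males against 2.61 ± 0.603 FPKM in females (SD, n = 5 each, exact two-sided permutation p = 0.0317), from 66 to 130 reads per rat. Its log2 fold change was −0.50 (standard error 0.16, 95% interval −0.85 to −0.15), with a limma adjusted p of 0.140 over all genes. Without female 2 it was −0.63 with a limma adjusted p of 0.0297. The exact p of *Igf1* rose to 0.0556 in each of 6 permutation tests that left out male 3, male 5, female 1, female 3, female 4 or female 5.

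*Igf1r* (ENSRNOG00000014187, chromosome 1, 128924966 to 129206516), the signalling receptor, averaged 6.06 ± 0.996 FPKM in males against 5.66 ± 1.43 FPKM in females (n = 5 each, exact permutation p = 0.611). Its values ran from 4.67 to 7.31 FPKM in males and from 4.11 to 7.80 FPKM in females, so the female range held the male one. The log2 difference was −0.12 with a 95% interval of −0.50 to 0.27. *Igf2r* (ENSRNOG00000014997, chromosome 1, 48176106 to 48264477) averaged 45.5 ± 7.02 against 41.2 ± 9.21 FPKM (exact permutation p = 0.421), with a log2 difference of −0.16 and an interval of −0.54 to 0.21. Without female 2 the log2 difference of *Igf2r* was −0.02. Within a rat, *Igf2r* stood 4.90 to 10.7 times above *Igf1r*, with medians of 7.46 in males and 7.20 in females. The insulin receptor *Insr* stood 1.197 to 2.28 times above *Igf1r* and averaged 8.95 ± 1.15 FPKM in males against 8.90 ± 0.614 FPKM in females.

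*Igfbp4* (ENSRNOG00000010635, chromosome 10, 86950557 to 86962578, plus strand) encodes the binding protein that PAPP-A cleaves. It was at 77.2, 67.8, 84.8, 40.7 and 52.7 FPKM in males 1 to 5, and at 42.7, 36.4, 42.2, 48.4 and 31.2 FPKM in females 1 to 5. Of the males, 4 lay above every female, and male 4 lay among the females. The mean was 64.7 ± 17.97 FPKM in males against 40.2 ± 6.56 FPKM in females (n = 5 each, exact permutation p = 0.0317). The log2 fold change was −0.65 (standard error 0.20, 95% interval −1.08 to −0.22), a level 1.57-fold higher in males, with a limma adjusted p of 0.124. Without male 4 it was −0.81 with a limma adjusted p of 0.0373, and without any 1 of the 5 females the exact permutation p was 0.0556 to 0.0714.

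*Igfbp3* (ENSRNOG00000061910, chromosome 14, 87457647 to 87465374) encodes the main carrier of IGFs in blood. It was at 89.0, 86.3, 61.8, 64.5 and 73.9 FPKM in males 1 to 5 and at 26.9, 79.1, 63.0, 66.6 and 58.0 FPKM in females 1 to 5. Female 1 was far below the other 9 rats, and its value rested on 1088 reads. The means were 75.1 ± 12.3 and 58.7 ± 19.4 FPKM (exact permutation p = 0.143), and the log2 fold change of −0.42 (limma adjusted p = 0.458) became −0.17 without female 1. *Igfbp6* (ENSRNOG00000010977, chromosome 7, 143749221 to 143754054), with 17 to 93 reads per rat, was the most variable member at a coefficient of variation of 46.7% over the 10 rats. It averaged 3.44 ± 1.33 FPKM in males against 2.49 ± 1.41 FPKM in females (exact permutation p = 0.310), and its lowest value, 0.899 FPKM, was that of female 4. Without female 2 its log2 fold change was −0.83 in place of −0.56, with a limma adjusted p of 0.202. Without female 4 it was −0.26, and without male 1 it was −0.37.

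*Igfbp5* (ENSRNOG00000017206, chromosome 9, 80150211 to 80167033) averaged 233 ± 31.3 FPKM in males against 205 ± 37.0 FPKM in females (n = 5 each, exact permutation p = 0.230). *Igfbp7* (ENSRNOG00000002050, chromosome 14, 33010300 to 33070190) had the opposite order of means, with 984 ± 111 FPKM in males against 1169 ± 271 FPKM in females (exact permutation p = 0.198). Males had 1065, 968, 1004, 1081 and 803 FPKM of *Igfbp7* and females had 913, 1599, 1250, 1086 and 998 FPKM, with female 2 highest. Without female 2 the log2 fold change of *Igfbp7* was 0.11 in place of 0.23, and that of *Igfbp5* −0.29 in place of −0.19. Without female 5 that of *Igfbp5* was −0.12. *Igfbp7* overlaps *Polr2b* (18.4 FPKM) and an *Rpl39* copy (3.41 FPKM) on the other strand, and the strand setting of the counting is not given in the sources used here.

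The 2 remaining binding proteins had close means in the sexes. *Igfbp1* (ENSRNOG00000058780, chromosome 14, 87448692 to 87453785), which insulin is known to repress in liver, averaged 58.5 ± 13.7 FPKM in males against 58.8 ± 15.4 FPKM in females (n = 5 each, exact permutation p = 0.960). Its log2 difference had a 95% interval of −0.44 to 0.43, which leaves room for changes of up to about that size. *Igfbp2* (ENSRNOG00000016957, chromosome 9, 80118029 to 80144789) averaged 32.3 ± 6.63 against 33.8 ± 5.57 FPKM (exact permutation p = 0.659), with an interval of −0.30 to 0.45.

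**Figure D3:**
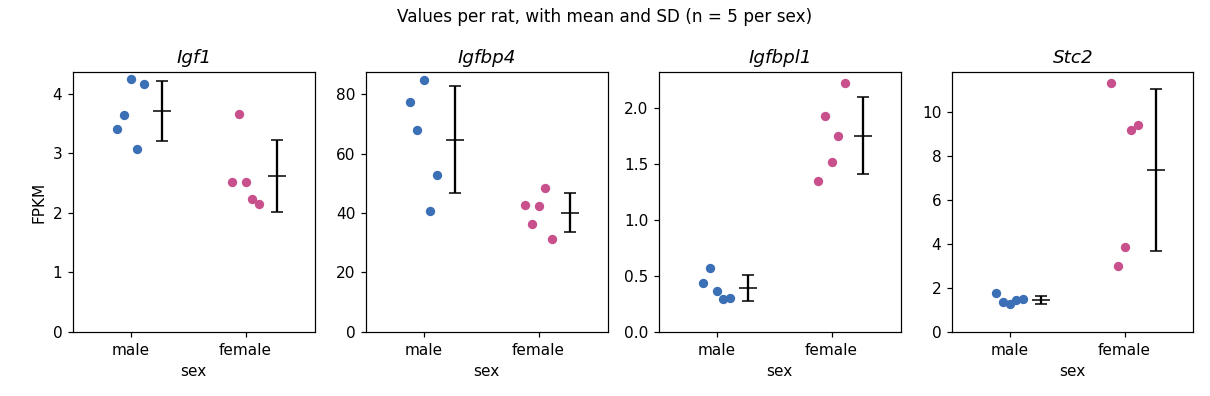
FPKM per rat (points) of *Igf1*, *Igfbp4*, *Igfbpl1* and *Stc2* in 5 males and 5 females, with the mean and SD beside them, each axis starting at 0. The sexes overlap through female 2 for *Igf1* and through male 4 for *Igfbp4*, and they are separate for *Igfbpl1* and *Stc2*.

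The make-up of the binding proteins was described by the share of each in their summed FPKM, a quantity that does not depend on how libraries are scaled and that was set up after values were seen. *Igfbp7* held 68.2%, 67.8%, 67.8%, 70.5% and 64.1% of the sum in males 1 to 5 and 72.1%, 76.1%, 75.4%, 73.3% and 74.8% in females 1 to 5. Every female share lay above every male share, while the level of *Igfbp7* itself overlapped (803 to 1081 FPKM in males against 913 to 1599 FPKM in females). A share depends on the other genes of the sum as well, so the separation is not a difference in *Igfbp7* alone. *Igfbp5* held 13.4% to 17.7% in males and 11.9% to 15.5% in females, and *Igfbp4* held 2.65% to 5.73% and 1.73% to 3.37%. The sum itself overlapped, at 1252 to 1561 FPKM among males against 1267 to 2101 FPKM among females. Set against 1000 FPKM of binding proteins, *Igf1* had 2.01 to 3.32 FPKM in each male and 1.51 to 1.98 FPKM in each female, again with no overlap. No test was made of these shares, and how often such shares separate the sexes in other sets of genes was not computed. In recovered reads, which are not divided by gene length, *Igfbp7* held 34.0% to 39.4% in males and 41.2% to 47.0% in females, while *Igf1* per 1000 such reads overlapped, at 1.89 to 3.08 in males and 1.56 to 1.98 in females.

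**Figure D4:**
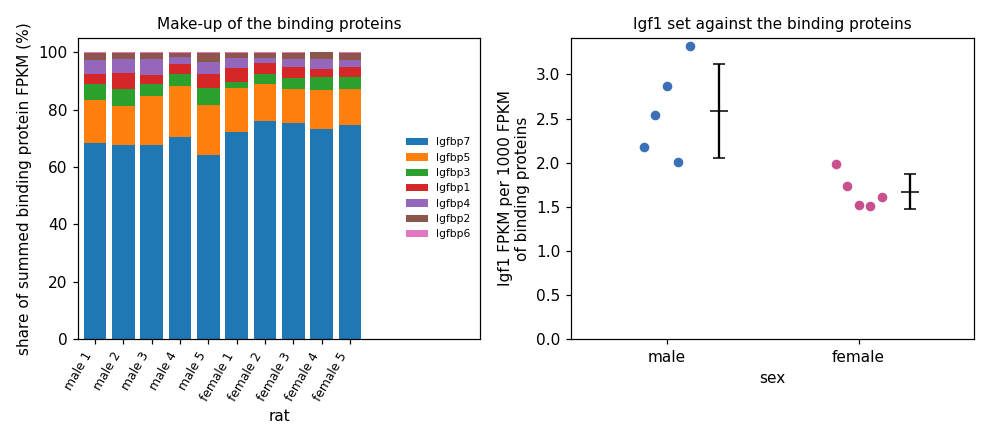
Left, share in percent of each binding protein in the summed FPKM of *Igfbp1* to *Igfbp7*, 1 bar per rat. Right, *Igf1* FPKM per 1000 FPKM of binding proteins, with 1 point per rat, the mean and the SD by sex. The *Igfbp7* share lies between 64.1% and 70.5% in males and between 72.1% and 76.1% in females, and *Igf1* per 1000 lies at or above 2.01 in males and at or below 1.98 in females.

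Outside the family, a list of 59 further IGF and growth hormone pathway genes was examined, of which 54 were expressed enough to be tested, on 55 rows. Of these 55 rows, 2 were higher in females past both thresholds and 0 lower, against 0.618% and 0.698% of all genes. The 2 were *Igfbpl1* and *Stc2*, and the adjusted p alone added none. Limma-voom on the recovered reads called 3 rows of the list past both thresholds, where over all 17631 genes it called 105 higher and 177 lower. Across the whole list by limma 5 rows were higher and 3 lower at an unadjusted p under 0.05, near the share of all genes (7.67% higher and 8.07% lower). The median log2 fold change of the list was 0.03. Over the 55 rows 8 had an exact permutation p of 0.05 or less, against 14.8% of all genes, and 3 had separate ranges (*Igfbpl1*, *Stc2* and *Jak2*), against 5.10% of all genes. The class of carriers, relatives and proteases had 12 genes tested and held 5 of the 8 rows with an unadjusted limma p under 0.05, and 6 of the 8 rows by the exact test. Of those 5, the proteases *Adam12* (log2 −1.13 for females over males, limma adjusted p = 0.108) and *Htra1* (log2 −0.44, limma adjusted p = 0.220) are named here after their values were seen.

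*Igfbpl1* (ENSRNOG00000011320, chromosome 5, 61395408 to 61410812, minus strand) encodes a relative of the binding proteins. It was at 0.439, 0.567, 0.366, 0.293 and 0.302 FPKM in males 1 to 5 and at 1.35, 1.92, 1.52, 1.75 and 2.22 FPKM in females 1 to 5, from 6 to 47 reads per rat. Every female was above every male. The log2 fold change was 1.92 (standard error 0.21), a 3.78-fold higher level in females, with a limma adjusted p of 0.000652. With any 1 rat left out its log2 fold change was 1.83 to 2.03. With a pseudocount of 1 it was 0.98, under the fold threshold, with a limma adjusted p of 0.000665.

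*Stc2* (ENSRNOG00000020729) encodes stanniocalcin 2, a secreted inhibitor of PAPP-A. It was at 1.75, 1.35, 1.25, 1.43 and 1.5 FPKM in males 1 to 5 and at 11.3, 3.01, 3.84, 9.18 and 9.40 FPKM in females 1 to 5. Again every female was above every male, and the females themselves spread more widely than the males. The log2 fold change was 2.09 (standard error 0.34), a 4.26-fold higher level in females, with a limma adjusted p of 0.00797.

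The related *Stc1* averaged 11.1 ± 2.22 FPKM in males against 21.6 ± 13.58 FPKM in females (limma adjusted p = 0.231), and female 2 alone reached 45.3 FPKM. Its log2 fold change fell from 0.80 to 0.49 without female 2. *Pappa*, the gene of PAPP-A, averaged 2.78 ± 0.667 against 3.34 ± 0.661 FPKM (n = 5 each, exact permutation p = 0.143). *Pappa2*, whose product cleaves IGFBP3 and IGFBP5, averaged 0.292 ± 0.116 against 0.175 ± 0.0284 FPKM (exact permutation p = 0.0476, limma adjusted p = 0.498). *Igfals*, the acid labile subunit of the circulating IGF complex, averaged 10.97 ± 3.42 against 11.4 ± 2.85 FPKM (exact permutation p = 0.865). *Igf2* was close to silent, at 0.206 ± 0.0575 and 0.236 ± 0.0670 FPKM from 11 to 32 reads per rat, and *Ins1* and *Ins2* are listed at 0 in all libraries.

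On the growth hormone side, the receptor *Ghr* averaged 45.5 ± 7.06 FPKM in males against 41.2 ± 9.03 FPKM in females (n = 5 each, exact permutation p = 0.421). The transducer *Stat5b* averaged 10.6 ± 0.368 against 10.1 ± 1.69 FPKM (exact permutation p = 0.579), and the feedback inhibitor *Socs2* at 5.24 ± 0.871 and 5.64 ± 2.27 FPKM (p = 0.810). The log2 fold change of *Socs2* was 0.04 and turned to −0.16 without female 2. *Cish*, another feedback inhibitor, averaged 14.1 ± 10.4 against 17.5 ± 11.5 FPKM, with male 2 at 32.4 FPKM and female 5 at 38.0 FPKM far above the rest of their sex. Its log2 fold change of 0.38 (limma adjusted p = 0.736) was 0.06 without female 5 and 0.74 without male 2. *Jak2*, the kinase bound to the growth hormone receptor, is named here after its values were seen. It was at 11.3, 11.6, 10.7, 9.39 and 9.42 FPKM in males 1 to 5 and at 16.8, 12.4, 13.4, 17.02 and 12.8 FPKM in females 1 to 5. Every female was above every male (exact permutation p = 0.00794, the smallest possible), with a log2 fold change of 0.46 that missed the threshold on its limma adjusted p of 0.0730. The docking proteins *Irs1* (2.01 ± 0.295 and 2.24 ± 0.335 FPKM, exact permutation p = 0.286) and *Irs2* (10.7 ± 3.75 and 13.01 ± 3.99 FPKM, exact permutation p = 0.381) did not differ beyond the spread between rats. The last 2 limma intervals were −0.18 to 0.47 for *Irs1* and −0.26 to 0.82 for *Irs2*. Of 31 rows for receptor adaptors and signalling, 30 were tested and 0 passed the adjusted p in limma, against 2.40% of all genes, while 1 had an unadjusted p under 0.05, against 15.7% of all genes.

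Marker lists of other cell types were set beside these values, where 51.2% of all genes tested were lower in females, 15.7% had an unadjusted p under 0.05 and 2.40% passed the adjusted p. All 8 genes of the fibroblast and pericyte list had a lower mean log2 level in females, with a median log2 fold change of −0.80. The summed level of the list was 265 to 352 FPKM among males against 86.9 to 251 FPKM among females, with no overlap. Of the 8 genes, *Col3a1* alone passed an adjusted test (log2 fold change −1.14, limma adjusted p = 0.0477), and none was at 0. At an unadjusted p under 0.05 there were 6 of the 8, all lower, and 3 had separate ranges. The macrophage list, another source of *Igf1* in tissue, had 6 of 7 genes with a lower mean log2 level in females and a summed level of 585 to 1241 FPKM among males against 351 to 784 FPKM among females. Of the 7 macrophage genes, 0 passed the limma adjusted p and 2 had an unadjusted p under 0.05. The endothelial list, whose cells are known to express *Igfbp3*, *Igfbp5* and *Igfbp7*, had 5 of 8 genes higher and a summed level of 184 to 238 FPKM among males against 179 to 256 FPKM among females. Lower mean log2 levels in females were also seen for 4 of 4 proliferating cell genes (median log2 fold change −0.73), 6 of 6 lymphocyte genes (median −0.96) and 5 of 6 tubule injury genes (median −0.68), of which 0 passed the limma adjusted p and 3, 1 and 2 had an unadjusted p under 0.05. Their summed levels overlapped between the sexes. The intercalated cell list had 5 of 5 genes higher (median 0.58), all at an unadjusted p under 0.05 and 1 of them past the adjusted p, *Atp6v0d2* (limma adjusted p = 0.0351), and its summed level was separate, with 134 to 205 FPKM in each male against 215 to 337 FPKM in each female. The juxtaglomerular list had 2 of 2 genes higher, 1 of them past both thresholds, and its summed level was also separate, with 12.2 to 23.1 FPKM in each male against 24.9 to 33.6 FPKM in each female. The principal cell list had 6 of 6 genes higher (median 0.40) and the proximal tubule list 4 of 7, with 1 gene of each past the adjusted p alone. At an unadjusted limma p under 0.05 the proximal tubule list had 2 genes lower and 1 higher, and its summed level overlapped between the sexes. Means were also higher in females for 6 of 6 podocyte genes (median 0.29), 4 of 4 thick ascending limb genes (median 0.25), 2 of 2 distal convoluted tubule genes and 3 of 4 thin limb and papilla genes, and lower for 3 of 4 smooth muscle genes. Of the 2 adipocyte genes tested, *Adipoq* was higher in females with separate ranges (log2 fold change 0.74, limma adjusted p = 0.0731). The other, *Fabp4*, was lower (log2 fold change −0.33, limma adjusted p = 0.837). None of these passed the adjusted p, and 3 of 3 urothelium genes tested, which female 2 carried, did not pass either. The part of these cell types in the IGF results was not tested, and in bulk tissue fewer cells of a type and less RNA per cell cannot be told apart.

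The genes whose levels followed a member most closely were sought for the 3 members of lowest limma p, over the 10 libraries after the mean of each sex was taken away, among the 11988 genes that averaged 1 FPKM or more. For *Igf1* these were *Atp10b* (Pearson r = 0.94, Spearman rho = 0.84), *Dock11* (r = 0.93, rho = 0.84) and *Glrx* (r = 0.92, rho = 0.87). All 3 were highest in female 2 and lowest in female 5, and r was 0.81 to 0.86 without the 2 libraries farthest from the median of *Igf1*. For *Igfbp4* they were *Ankmy2* (r = 0.89, rho = 0.82), *Rnf157* (r = 0.87, rho = 0.85) and *SNORA73* (r = 0.86, rho = 0.88), each lowest in male 4, and r was 0.65 to 0.70 without the 2 farthest libraries. For *Igfbp3* they were *Sult5a1* (r = 0.97, rho = 0.85), *Nmnat1* (r = 0.96, rho = 0.90) and *Tm2d2* (r = 0.95, rho = 0.87), each lowest in female 1. These are the highest values picked among many genes and are a description only.

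The genes *Igfbp1* and *Igfbp3* lie 3861 bases apart on chromosome 14, and *Igfbp2* and *Igfbp5* lie 5421 bases apart on chromosome 9. After the mean of each sex was taken away, the levels of *Igfbp1* and *Igfbp3* had r = 0.17 (p = 0.725) and rho = 0.25 (p = 0.535) over 10 rats by exact permutation within sexes. Those of *Igfbp2* and *Igfbp5* had r = −0.25 (p = 0.481) and rho = −0.18 (p = 0.649) by the same exact permutation. These were the only 2 pairs tested, and the Benjamini-Hochberg adjusted p was 0.725 for both r and 0.649 for both rho. Without the 2 farthest rats, r was −0.32 and −0.02.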

How the data were processed

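Libraries from the renal cortex of 10 PCK rats were grouped by the sex in the sample titles. The authors deposited 1 table of FPKM for 32545 genes, computed by their sequencing provider after mapping with HISAT2 to Ensembl Rnor_6.0. The submitters' processing notes name HISAT2 2.0.5, fastp, StringTie 1.3.3b and featureCounts 1.5.0-p3. The authors' own test used DESeq2 on counts, which were not analysed here. Reads were recovered by dividing each FPKM by the value of 1 read at the gene's length. FPKM were tested with limma (trended eBayes) on log2(FPKM + 0.1) over genes averaging 0.1 FPKM or more, which understates changes of low genes, with Benjamini-Hochberg adjustment over all genes. Single genes had an exact two-sided permutation test of mean FPKM, whose smallest p is 0.00794. P-values measure the spread between these rats and treat them as independent, although they were littermates.

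The fits ran in limma 3.58.1 under R 4.3.3, and the other steps in Python 3.11.15 (scipy 1.17.1, pandas 2.3.3, numpy 2.4.6). The procedures were tested on simulated data. Chi-square over degrees of freedom was 9.71 for the closest pair of libraries, and each library counted as 1 sample. Genes named are the 10 members, 13 fixed pathway genes, further pathway genes with an adjusted p of at most 0.05, the 3 genes most like each of 3 members and 3 Y-linked genes. Marker genes, *Jak2*, *Adam12*, *Htra1*, *Ins1*, *Ins2* and the 2 overlapping genes were named outside that rule, after values were seen. The members and lists were chosen with earlier results of these data known. Alternatives tried were no filter or one at 1 FPKM, a pseudocount of 1 or of 0.01, scaling to total reads, quantile normalization, other eBayes settings, a replicate block, limma-voom and leaving out each library. Median-ratio scaling was also run. Its factor was the same in all libraries, so it acted only through the filter and the pseudocount, with 17619 genes tested in place of 17631.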

Additional observations from a re-analysis of the deposited data

Results flagged for a closer look

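In 48 groups of 5 rats (24 genes in each sex), 6 had a highest or lowest rat set apart by a gap above Dixon's 95% critical value, where chance alone gives about 1 in 20 groups, or 2.40 of 48. Female 2, the library with the largest mitochondrial share, was set apart for *Igf1* at 3.65 FPKM, with the next female at 2.52 FPKM, and for *Stc1* at 45.3 FPKM, with the next at 20.3 FPKM. *Cish* was set apart in both sexes, at 32.4 FPKM in male 2 (next male 11.2 FPKM) and at 38.0 FPKM in female 5 (next female 13.4 FPKM). *Igf2* was low in male 2 at 0.105 FPKM, from 11 reads, with the next male at 0.215 FPKM. *Pappa2* was low in female 1 at 0.125 FPKM, from 20 reads, with the next female at 0.179 FPKM.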

How the results depend on the processing

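No member passed both thresholds under any alternative. On the adjusted p alone, 0 to 1 members passed with 1 library left out, the 1 being *Igf1* without female 2 and *Igfbp4* without male 4. Pathway genes past both thresholds were 2 to 3 and on the adjusted p alone 2 to 4 (4 without female 2), and a pseudocount of 1 left 1 past both, *Igfbpl1* being lost. With 1 library left out, log2 fold changes ranged from −0.63 to −0.44 for *Igf1*, −0.24 to −0.01 for *Igf1r*, −0.26 to −0.02 for *Igf2r*, −0.13 to 0.12 for *Igfbp1*, −0.066 to 0.19 for *Igfbp2*, −0.55 to −0.17 for *Igfbp3*, −0.81 to −0.54 for *Igfbp4*, −0.29 to −0.12 for *Igfbp5*, −0.83 to −0.26 for *Igfbp6* and 0.11 to 0.31 for *Igfbp7*. Differences in mean FPKM ranged from −1.35 to −0.954 for *Igf1*, −5.11 to 5.68 for *Igfbp1*, −1.26 to 3.79 for *Igfbp2* and −30.5 to −19.4 for *Igfbp4*, and the log2 step from *Igfbp3* to *Igfbp1* from 0.10 to 0.31. Log2 fold changes without 1 library ranged from −0.00087 to 0.21 for *Igf2*, −0.062 to 0.047 for *Insr*, −0.12 to 0.21 for *Igfals*, −0.16 to 0.16 for *Socs2*, 0.06 to 0.74 for *Cish*, 0.13 to 0.46 for *Irs2*, 0.08 to 0.21 for *Irs1*, 0.14 to 0.39 for *Pappa*, −0.67 to −0.34 for *Pappa2*, −0.26 to −0.08 for *Ghr*, −0.17 to −0.04 for *Stat5b*, 0.49 to 0.94 for *Stc1* and 1.89 to 2.36 for *Stc2*. Scaling to total reads gave differences in mean FPKM of −2.37 for *Igfbp1*, −0.474 for *Igfbp2* and −20.8 for *Igfbp3* (exact permutation p = 0.0476), and log2 fold changes of −0.0033 for *Igfals* and −0.035 for *Socs2*. The difference of *Igfbp1* was −0.0012 on the log2 scale, *Socs2* had −0.041 by limma-voom and *Insr* had 0.0081 under quantile normalization. The labels do not say that same-numbered males and females belong together. After the mean of each sex was taken away, 0 of 5 such pairs correlated above 0.1. A shared litter was not tested, since the labels do not give it. With the replicate block limma still called 2 pathway genes and 0 members, and the differences of −1.09 FPKM for *Igf1* and −24.5 FPKM for *Igfbp4* had an exact sign-flip permutation p of 0.125, in a test that cannot go below 0.0625. Causes of these changes were not tested. Read depth limits *Igfbp6*, *Igf2*, *Pappa2* and *Igfbpl1*, which had 6 to 93 reads per rat.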
